A study of Arabidopsis thaliana with 12 samples.

Results

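Among the Tn5 hypersensitive sites (THSs) of Arabidopsis thaliana seedlings, 307 of 23226 (1.32%) were broad open sites of the chromosome arms. They were chosen by length and position alone: a THS of at least 1000 bp whose midpoint lay outside a fixed pericentromeric interval on each of the 5 chromosomes. Length was therefore a measured value that selected the members, and it is given here as a description with no test. The remaining arm THSs, 20986 shorter than 1000 bp and down to 1 bp, served as the comparison, and a further 104 broad sites lay in the pericentromeres.

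The THSs came from ATAC-seq of whole seedlings at 10 days after germination, grown under long days on MS agar with sucrose. There were 12 samples, 2 for each of 6 genotypes, all in the Col-0 ecotype: wild type (WT), the weak mutant ring1ab, lhp1, and the severe mutants emf1-2, clf28swn7 and bmi1abc. The mutants lack or are reduced in Polycomb group (PcG) proteins: the E3 ligase components BMI1A/B/C and RING1A/B of Polycomb repressive complex PRC1, the H3K27 methyltransferases CLF and SWN of PRC2, and the PcG-associated proteins EMF1 and LHP1. Shoots of the severe mutants do not leave the embryonic program, so whole seedlings of the genotypes differ in their organs. The deposited list merges the THSs of all 6 genotypes and carries the chromosome, start and end of each region, with no genotype, signal or replicate. Whether a broad site was open in WT, in 1 mutant or in all, and whether its length came from 1 genotype or from THSs of several that overlapped in part, cannot be told apart in this list. The depth of each sample is not in the list, no value below has an error over replicates, and groups of sites were set side by side without a test. Intervals are 95% Wilson intervals and cover counting error only.

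In ATAC-seq the transposase Tn5 cuts DNA that is free of nucleosomes, so a THS marks a stretch where chromatin is open. In plants such stretches lie mostly in promoters, just upstream of the transcription start site (TSS), where transcription factors (TFs) bind. A site that spans several nucleosomes can hold binding sites of many factors and can serve the promoters of a pair of neighbouring genes. PcG proteins keep many developmental genes silent through marks on histones H2A and H3.

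The motifs that recurred inside broad sites are easiest to see in the DNA itself, so 5 stretches are shown, picked after their motif counts had been seen. They are read 5′ to 3′ on the plus strand of the RefSeq assembly TAIR10.1, lie outside annotated exons, and carry the motif in capitals. The first pair shows the G-box CACGTG, the palindrome bound by bHLH and bZIP factors, in the broad sites upstream of PHYB (chr2:8139578-8139687), which encodes the red-light photoreceptor phytochrome B, and between SCPL49 and SPD1 (chr3:3238883-3238982). The next pair shows the evening element AAAATATCT, or its reverse complement, to which RVE-type MYB factors of the circadian clock bind, in a tandem repeat within an intron of AT4G31354 (chr4:15218387-15218656) and beyond the 3′ end of LBA1 (chr5:19080163-19080242). The last shows the GA repeat GAGAGA, here as its reverse complement, in the site past the 3′ end of AT2G18490 (chr2:8021584-8021673).
PHYB upstream: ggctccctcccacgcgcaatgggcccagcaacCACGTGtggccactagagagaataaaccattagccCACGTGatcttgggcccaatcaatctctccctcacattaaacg
SPD1 upstream: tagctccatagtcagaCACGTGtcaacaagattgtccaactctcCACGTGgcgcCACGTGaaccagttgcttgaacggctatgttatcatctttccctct
AT4G31354 repeat: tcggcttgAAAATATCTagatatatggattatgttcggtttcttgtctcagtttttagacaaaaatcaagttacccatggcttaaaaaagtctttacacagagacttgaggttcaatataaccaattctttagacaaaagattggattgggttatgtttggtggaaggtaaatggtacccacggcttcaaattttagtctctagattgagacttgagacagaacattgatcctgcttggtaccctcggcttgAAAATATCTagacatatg
LBA1 downstream: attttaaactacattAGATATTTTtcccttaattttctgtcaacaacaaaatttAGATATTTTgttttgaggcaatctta
AT2G18490 tract: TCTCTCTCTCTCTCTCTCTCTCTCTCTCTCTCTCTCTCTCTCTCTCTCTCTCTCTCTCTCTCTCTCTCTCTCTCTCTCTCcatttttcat
The PHYB stretch held 2 G-boxes in 110 bases and ended 69 bp before the TSS. The SPD1 stretch held 3 in 100 bases and ended 14 bp before it. The evening elements of the AT4G31354 repeat recurred every 243 to 244 bp, and the site held 6 of them.

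By length the broad sites formed no class apart from the other arm sites. They ran from 1000 to 2331 bp with a median of 1128 bp (quartiles 1056 and 1255 bp), against a median of 254 bp for the shorter arm sites. Of the 307, 103 (33.6%) reached 1200 bp, 23 reached 1500 bp and 2 reached 2000 bp. The 3 members just inside the limit measured 1000 bp at HK5, which encodes a histidine kinase, 1002 bp at UNE1 and 1003 bp at GAPC2, a cytosolic glyceraldehyde-3-phosphate dehydrogenase gene. The 3 sites just outside it each measured 999 bp, at AT3G14060, at BBX31 and at GSL12, and the counts fell smoothly through the limit, with 179 arm sites of 900 to 999 bp and 132 of 1000 to 1099 bp. Sites on both sides of the limit were named by the nearest coding TSS. The HK5 site had its midpoint at -1768 bp and touched no coding gene or its 1 kb upstream. Broad pericentromeric sites were longer, with a median of 2131 bp and a longest site of 20399 bp.

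**Figure D1:**
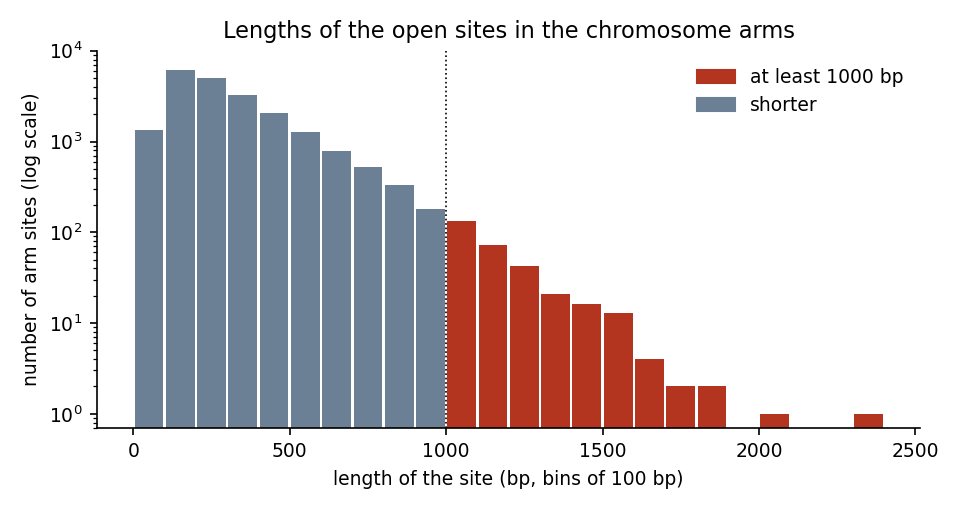
Number of arm THSs in each 100-bp bin of length, with the count on a log scale. Red bars are the 307 sites of at least 1000 bp and grey bars the shorter ones, and the counts fall without a gap from 179 sites in the last bin below the limit to 132 in the first above it.

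Broad sites occurred on all 5 chromosomes, 91 on chromosome 1, 37 on chromosome 2, 59 on chromosome 3, 57 on chromosome 4 and 63 on chromosome 5. Per Mb of arm this was 3.58, 2.43, 3.29, 3.78 and 2.87 sites, while the shorter sites ran evenly at 213 to 222 per Mb. Chromosome 2 was lowest and chromosome 4 highest. The broad sites made up 1.44% of arm THSs and 5.42% of their bases, and covered 0.381% of the arms. They were mostly far apart, with a median gap of 194 kb between neighbours on a chromosome. In 11 neighbouring pairs, named by the nearest coding TSS, the gap was under 10 kb. Among them were CAT2, a catalase gene, with PIP3, an aquaporin gene (5279 bp), and PPC2, a phosphoenolpyruvate carboxylase gene, with MAX2, the F-box gene of strigolactone signalling (9364 bp). The sites named by PPC2 and MAX2 had midpoints at -2494 and -3927 bp and touched no coding gene or its 1 kb upstream.

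The broad sites lay mostly upstream of genes. The midpoint fell in a promoter, taken as the 1 kb before the TSS of a gene of any type, in 211 of 307 sites (68.7%, interval 63.3 to 73.7%), against 51.1% of the shorter sites (50.5 to 51.8%) and 29.6% of all arm bases. Midpoints in coding exons were few, 1.63% against 10.4% of shorter sites, and so were midpoints in 5′ UTRs, 1.63% against 8.94%. A further 63 midpoints (20.5%) were in other intergenic sequence, a share close to the 19.7% of shorter sites. Counted over bases rather than midpoints, 61.7% of broad-site sequence was promoter, 5.78% 5′ UTR and 3.03% coding exon.

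Most broad sites (80.5%) had their centre upstream of the nearest coding TSS, and 49.5% of them reached over it. Relative to the nearest TSS of a protein-coding gene, in gene direction, the median midpoint was at -494 bp (quartiles -859 and -223 bp), and that of shorter sites at -97 bp. The site covered that TSS in 152 cases (49.5%), lay wholly upstream in 109 and wholly downstream in 46. Where it covered the TSS, it extended a median of 973 bp upstream and 172 bp downstream (quartiles of the downstream reach 82 and 300 bp). Its downstream edge passed the start codon in 27 of the 150 such sites whose gene has an annotated leader. The 109 wholly upstream sites ended a median of 432 bp before the TSS, and 58 of them ended within 500 bp of it. Position by position, coverage by broad sites was highest from -650 to -450 bp, where 64.5 to 65.1% of them lay, and was 49.5% at the TSS and 5.54% at 500 bp into the gene.

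**Figure D2:**
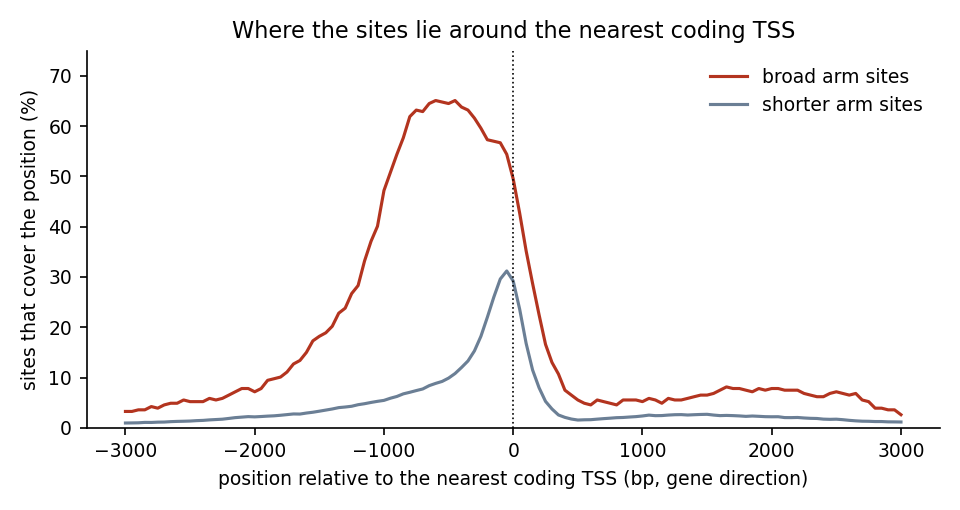
Percent of the 307 broad arm sites (red) and the 20986 shorter arm sites (grey) that cover each position around the nearest coding TSS, in steps of 50 bp, with the gene to the right of 0. The broad curve is highest from -650 to -450 bp (64.5 to 65.1%) and the shorter curve at -50 bp (31.2%).

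A long region meets a TSS more often than a short one through its length alone, so windows of 300 bp at the centre of each site were compared as well. On these the order reversed: 13 of 307 broad centres (4.23%, interval 2.49 to 7.11%) held a coding TSS, against 28.4% of shorter ones (27.8 to 29.0%). These windows do not remove the effect of length. A long site with an edge near a TSS has its centre away from it by construction. In a site shorter than 300 bp the window also takes in flanking sequence. Below 200 bp, 16.8% of sites but 26.3% of windows held a coding TSS. The windows used below for GC content and motifs share this limit. Over whole sites, 185 broad sites (60.3%, interval 54.7 to 65.6%) covered the TSS of a gene of any type, against 32.1% of shorter sites, and 41 (13.4%, interval 10.00 to 17.6%) covered 2 or more, against 3.78%.

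The flanking genes were often divergent. The midpoint lay between head-to-head coding genes in 139 sites (45.3%, interval 39.8 to 50.9%), against 25.7% of shorter sites (25.1 to 26.3%). It lay between tandem genes in 101 (32.9%, against 32.3%), between tail-to-tail genes in 17 (5.54%, against 4.78%) and inside a coding gene in 48 (15.6%, against 37.2%). Of the 139 head-to-head sites, 16 covered both coding TSSs, 68 covered 1 of them and 55 covered neither. The space between the flanking coding genes had a median of 2093 bp, a little less than the 2366 bp around shorter sites, and a broad site took a median of 51.4% of it. Of the 257 broad sites between genes, 37 filled the whole space, 16 of them head-to-head. Of the 13172 shorter sites between genes 823 did so, and a longer site fills a space more readily through its length alone.

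Pairs whose TSSs both lay in a broad site included ABCC5 with TPR2, GBF2, a G-box-binding bZIP factor gene, with AT4G01130, BBX19 with AT4G38950, BAK1, the co-receptor kinase of brassinosteroid and immune signalling, with AT4G33440, and SPL13A with SAE1B. The GBF2 site was 1354 bp long in a space of 1218 bp. The BAK1 site was 1089 bp in 702 bp, and the BBX19 site 1294 bp in 744 bp, so each of the 3 ran from within one gene of the pair into the other. These examples were picked after the sites had been listed.

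Across all arm sites these features moved with length, with no resolved break at 1000 bp. The promoter share of midpoints was 41.5% below 200 bp, 53.8% from 200 to 399 bp, 62.9% from 800 to 999 bp and 69.6% from 1000 bp to below 1200 bp. The head-to-head share was 19.2%, 27.2%, 35.1% and 41.7% in the same classes, 51.2% from 1200 bp to below 1500 bp and 56.5% (interval 36.8 to 74.4%) in the 23 sites of 1500 bp and more. For both shares the intervals of neighbouring classes above 600 bp overlap, so their order is not resolved. The share of central windows over a coding TSS was highest from 200 to 399 bp (35.0%), 6.27% from 800 to 999 bp, and 0 of 23 in the longest class (interval up to 14.3%). Within the broad sites, the median midpoint was at -430 bp below 1200 bp, -564 bp from 1200 bp to below 1500 bp and -606 bp beyond. A longer site that keeps an edge near the TSS has its midpoint farther from it by construction.

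**Figure D3:**
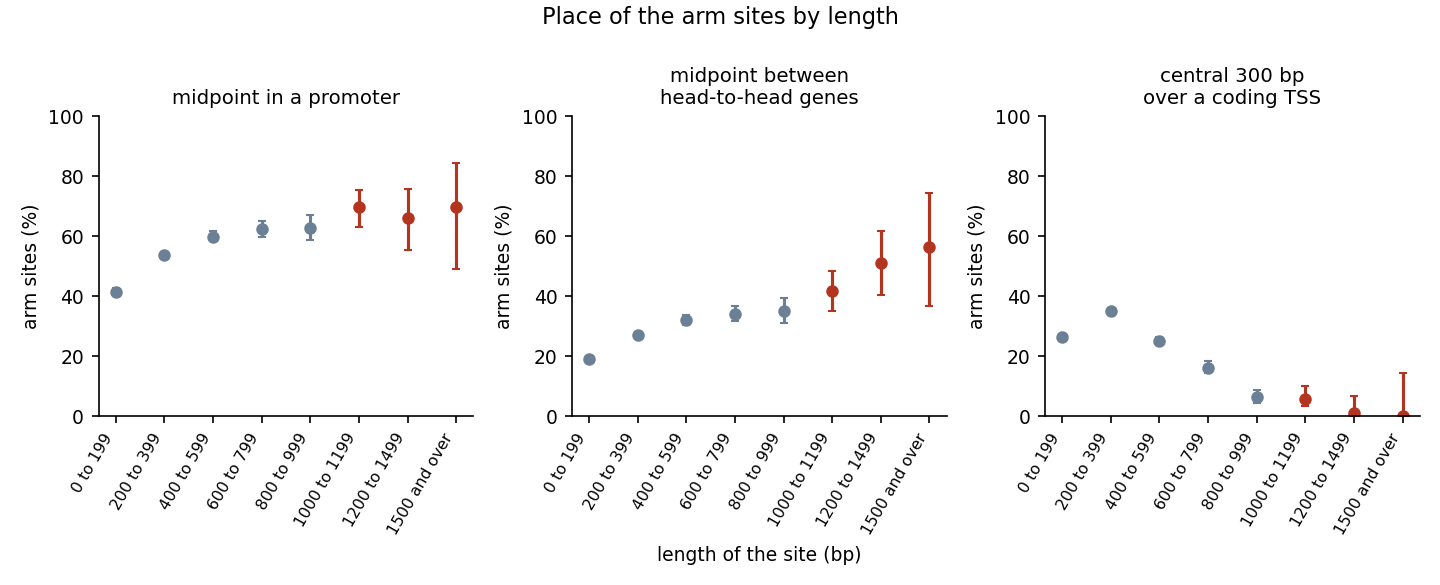
Share of arm sites in 8 classes of length, below 200 bp at the left and 1500 bp and over at the right, with 95% Wilson intervals as error bars and classes of at least 1000 bp in red. Promoter midpoints and head-to-head positions are more frequent among longer sites (head-to-head 19.2% in the shortest class and 56.5% in the longest), and centres over a coding TSS are rare from 800 bp on.

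The 15 longest sites sat at genes of many kinds. The longest, 2331 bp at chr1:1071048-1073378, filled the 2193 bp between ABCC5 (AT1G04120), an ABC transporter gene, and TPR2 (AT1G04130), a tetratricopeptide repeat gene, covered both TSSs and contained the TSS of a long non-coding RNA, AT1G04243. The next, 2070 bp at chr2:18464896-18466965, covered the TSS of AT2G44800, a 2-oxoglutarate-dependent oxygenase gene, and also touched 3 lncRNA genes. The third, 1838 bp, lay over AT1G59920 and AT1G59930, both MADS-box genes, and 58.2% of its 32-bp words stood at more than 1 place in the nuclear chromosomes. The fourth, 1816 bp at chr1:23352612-23354427, covered the TSS of AT1G63010, which encodes an SPX-domain transporter of the major facilitator superfamily.

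Several of the others stood between divergent genes. A 1681-bp site at chr2:18907884-18909564 covered the TSS of SK20, a SKP1-like gene, and ended 517 bp before that of PIP1B, an aquaporin gene. A 1558-bp site covered the TSS of PTI1-4, a protein kinase gene, and ended 105 bp before that of SPL1, which encodes an SBP-box TF. A 1672-bp site took 89.7% of the 1864 bp between AT5G58610, a PHD finger gene, and AT5G58620, a CCCH zinc finger gene, and covered neither TSS. The remaining sites with a single coding gene were at AT1G04990 (1707 bp), AT5G26220 (1630 bp), which encodes a ChaC-like protein of the family that degrades glutathione, AT3G05320 (1594 bp) and PDE345 (1579 bp), a fructose-bisphosphate aldolase gene. A 1554-bp site covered the TSS of AT5G26731 and the 3′ end of AT5G26740.

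Of these 15 sites, 3 touched no coding gene or its 1 kb upstream. The first, 1722 bp at chr3:19619926-19621647, had its midpoint at -2279 bp from the TSS of GRF4, a growth-regulating factor gene, in a space of 5770 bp, and held 5 W-box cores TTGACC, the motif bound by WRKY factors. This was the most of any broad site. The second, 1557 bp, covered the TSS of the lncRNA AT1G09293. The third, 1621 bp at chr4:1738061-1739681, lay 611 bp from another broad site of 1435 bp, with its midpoint 35661 bp past the nearest coding TSS. In that pair 67.0% and 85.4% of 32-bp words were repeated ones.

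**Figure D4:**
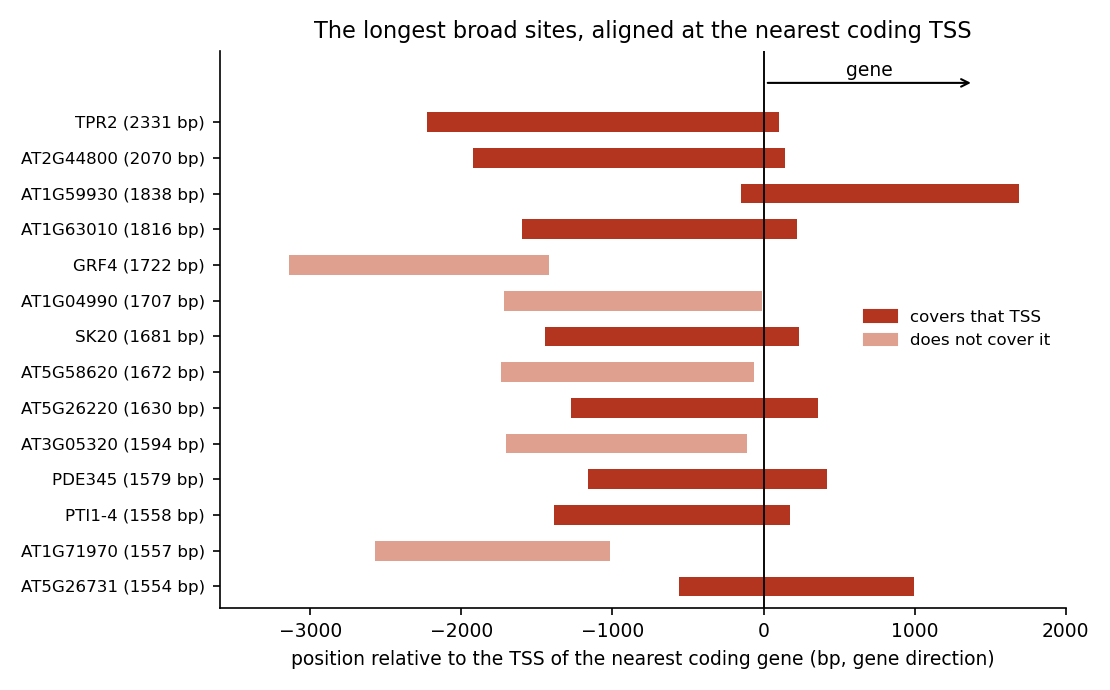
The 15 longest broad sites except the 1 far from any coding TSS, drawn to scale and aligned at the nearest coding TSS (position 0, gene to the right). Dark bars cover that TSS and light bars do not, and every bar but those of AT1G59930 and AT5G26731 has its greater part upstream.

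In all, 407 of 25570 protein-coding genes of the arms (1.59%) had a broad site in the gene or in the 1 kb before its TSS, and none had 2. A site of any length was there for 15825 of them (61.9%). Of the 307 sites, 147 touched 1 coding gene, 121 touched 2, 6 touched 3 and 33 touched none. Touching 2 or more was the case for 41.4% of broad sites and 22.8% of shorter ones, and a longer region touches more genes through its length alone. At 19 sites there was no gene of any type, body or 1 kb upstream.

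The genes with a broad site over the TSS or the 1 kb before it had room upstream. For these 311 genes the distance to the next coding gene upstream had a median of 1553 bp, against 852 bp for the 12290 genes with shorter sites only and 863 bp for the 12969 with none there. The lower quartile was 918 bp, against 249 and 218 bp, and a site of 1000 bp in a space shorter than itself has to enter a gene. The upper quartiles were alike, 2317, 2104 and 2185 bp. Their leaders, the distance from the TSS to the first start codon on the genome, were also longer, with medians of 289, 201 and 129 bp, and the genes themselves had median lengths of 2483, 2293 and 1912 bp.

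TF genes were counted by words in their product names, which miss some members of each family and can take in genes of another. Of 1422 arm TF genes found this way, 26 (1.83%, interval 1.25 to 2.67%) had a broad site, beside 1.59% of all coding genes. By family, 5 of 167 MYB and MYB-like genes (2.99%), 4 of 109 MADS-box genes (3.67%), 5 of 195 zinc finger genes (2.56%), 2 of 163 AP2/ERF genes, 1 of 139 bHLH genes and 1 of 63 GRAS and TCP genes had one. So had 5 of 199 genes with homeobox or homeodomain-like product names (2.51%). This is not a share of homeobox genes alone, since RVE8, a MYB factor, and AT4G39160 were matched as homeodomain-like. The AP2/ERF count missed DREB2A, a drought response factor gene (1055 bp, ending 12 bp before the TSS), and RAP2.2 (1107 bp), which both had a broad site. It also left out AT1G01840 (1173 bp, over the TSS), whose product is given as the AP2-like factor SNZ. Whether AT1G01840 belongs to the family rests on that name alone. The words for bZIP factors matched 1 gene with a broad site, the homeobox gene ANL2, and missed the bZIP genes GBF2 (1354 bp) and GBF3 (1217 bp), so no bZIP count is given. None of 69 WRKY and none of 114 NAC genes matched by product name had a broad site, though 73.9% and 71.9% of them had a site of some length. Counts this small do not tell the families apart.

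RVE8, a MYB factor of the circadian clock listed among the homeobox-like products, had a site of 1344 bp over its TSS, with 4 G-boxes and the gene for a serine tRNA inside it. MYB30, a regulator of cell death and brassinosteroid responses, had 1256 bp over its TSS, and AT3G13040, a MYB-like gene, 1258 bp. The other MYB-like genes named by the rule were AT1G25550 (1250 bp, midpoint at -976 bp) and AT1G70000 (1095 bp, over the TSS). Among zinc finger genes IDD1 had 1395 bp with its midpoint at -976 bp, BBX19, a B-box repressor of flowering, 1294 bp over the TSS, and BBX30 1039 bp at -523 bp. AIL5, an AINTEGUMENTA-like gene of lateral organ and root growth, had 1141 bp over its TSS with 13 GA repeats, and SCL3, a GRAS gene of gibberellin signalling, had 1476 bp over its TSS.

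Not every such site was at the promoter. HB-2, the homeobox gene of shade avoidance, had its site of 1048 bp over its 3′ end (midpoint 1717 bp after the TSS), and ANL2, another homeobox gene, inside the gene (1084 bp, 4290 bp after). Sites over the 3′ end were also found at RLT2, a partner of ISWI remodellers (1373 bp, 8104 bp after the TSS), and at ERF8, an ethylene response factor gene (1256 bp, 1651 bp after). Upstream sites were those of the MADS-box genes AGL28 and AGL19, the latter a flowering activator known as a PcG target, of 1436 and 1077 bp. Their midpoints were at -1362 and -962 bp, and that of AGL19 fell in the 1 kb before its own TSS. AT1G05710, a bHLH gene, also had its site upstream, 1308 bp at -1001 bp. The MADS-box count rests on 3 sites, since AT1G59920 and AT1G59930 share one.

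Of the lists without TFs, 3 had none: calcium sensor genes (0 of 178), peroxidase genes (0 of 96) and histone genes (0 of 51). Auxin response genes had 4 of 117 (3.42%), of which ARF18 (1138 bp, midpoint at -678 bp) had it upstream and ARF6 (1077 bp, 5638 bp after the TSS) at the 3′ end, as had the SAUR-like genes AT5G10990 (1196 bp) and AT1G72430 (1057 bp). NLR immune receptor genes had 4 of 150 (2.67%), with RPS2, the receptor that guards RIN4 against a bacterial effector, holding 1333 bp over its TSS, AT5G05400 holding 1055 bp, and AT5G46510 and AT5G46520 sharing 1069 bp. Leucine-rich repeat receptor kinases had 4 of 203 (1.97%). Of these, BAM1, a CLE peptide receptor of the meristem, had 1148 bp at -961 bp and AT5G63410 had 1159 bp at -1059 bp. The site of RLK (1391 bp) lay inside the gene, 2444 bp after the TSS. That of AT1G05700 (1308 bp) lay over its 3′ end, 4144 bp after the TSS, and is the site also given for AT1G05710. Photosystem genes had 2 of 56, AT3G63540 and AT1G51400.

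The remaining lists had 1 to 3 genes with a broad site each, and none of these counts was tested against the 1.59%. F-box genes had 3 of 605 (0.496%), AT2G18780, AT1G23390 and AT5G46170, and 36.2% of them had a site of any length, against 61.9% of all coding genes. Pentatricopeptide repeat genes had 1 of 300 (EMB2279, 1118 bp), cytochrome P450 genes 1 of 234 (CYP72C1, a brassinosteroid-inactivating enzyme, 1005 bp), and ribosomal protein genes 3 of 326, AT4G23620, AT1G77750 and RPS15. The heat shock list had 1 of 222, TTA1 (1085 bp). It was matched only through a product name that is marked as putative, so it may be no heat shock gene. Late embryogenesis and seed storage genes had 3 of 244 (AT2G41990, AT4G36700 and AT4G01410).

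**Figure D5:**
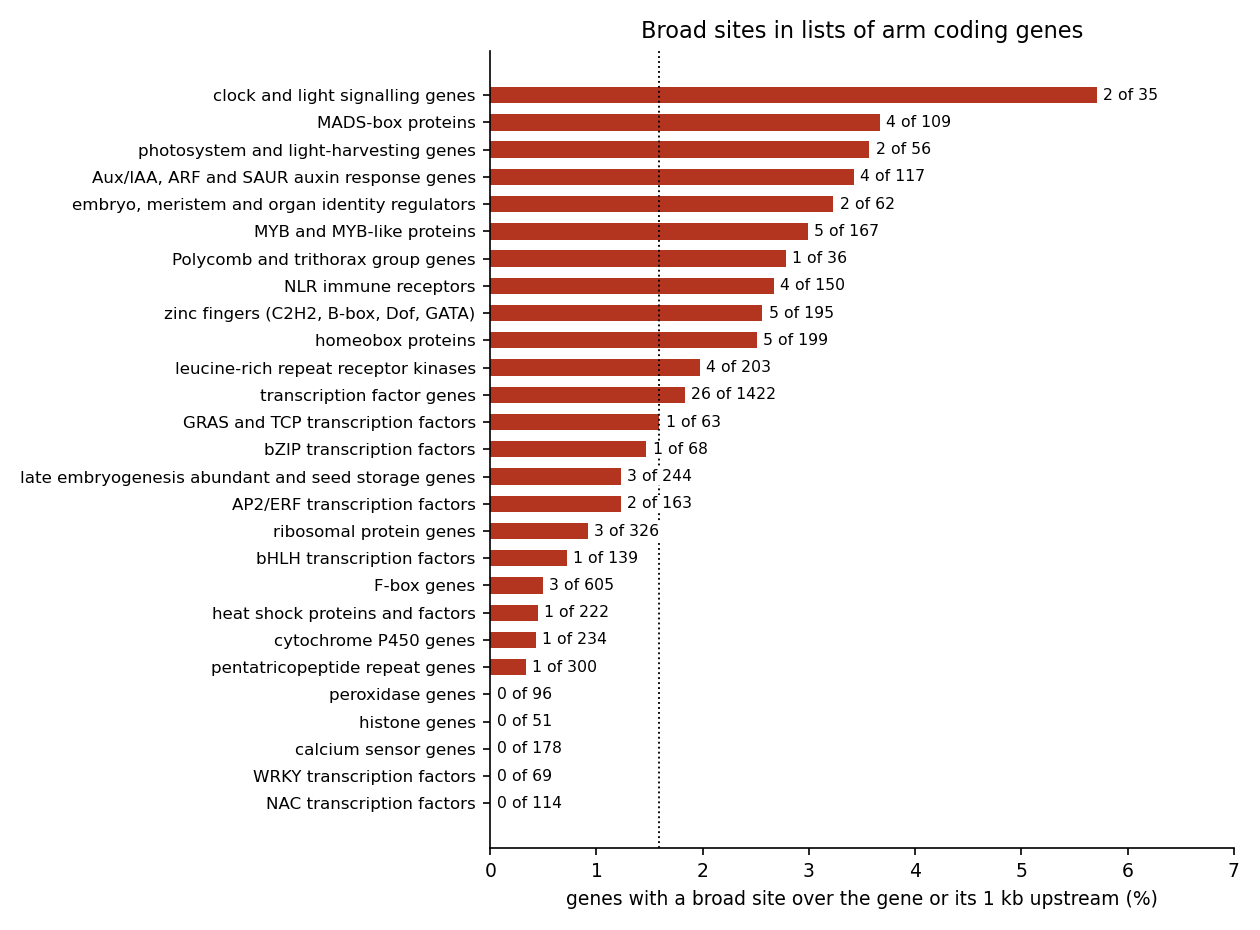
Percent of the arm coding genes of each list that had a broad site over the gene or its 1 kb upstream, with the counts beside the bars and the 1.59% of all arm coding genes as a dotted line. Genes are those matched by product words or symbols, so families are incomplete, and the bar for bZIP factors is the homeobox gene ANL2. The homeobox bar takes in homeodomain-like products such as the MYB factor RVE8, and the heat shock bar is TTA1, matched by a putative product name. Clock and light signalling genes have the longest bar (2 of 35), and 5 lists have none.

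The clock and light signalling list had 2 of 35 genes, PHYB and RVE8. The PHYB site, 1553 bp at chr2:8138158-8139710, took 96.3% of the 1613 bp between PHYB and AT2G18780 and ended 46 bp before the PHYB TSS, and it held 3 G-boxes, 2 of which are in the stretch shown. Of 62 embryo, meristem and organ identity regulators, many of them PcG targets, AIL5 and AS2 had one (2 of 62). AS2, which sets the upper side of the leaf, had 1070 bp with its midpoint at -1439 bp.

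Of 36 Polycomb and trithorax genes only EMF1 had a broad site. It ran for 1025 bp at chr5:3694668-3695692 with its midpoint at -612 bp. Each of the 9 genes mutated in the study had a THS in the gene or its 1 kb upstream, as had 61.9% of arm coding genes and 69.4% of the Polycomb and trithorax list. The others were of 558 bp at SWN, 391 bp at RING1A, 384 bp at BMI1B, 350 bp at RING1B, 230 bp at CLF, 140 bp at BMI1C, 123 bp at LHP1 and 71 bp at BMI1A. Those at BMI1C and LHP1 were not at the promoter, with midpoints 2682 and 1532 bp after the TSS. The order of these lengths is that of the merged list and belongs to no genotype.

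Short non-coding genes were also found inside broad sites. Of 586 arm tRNA genes 12 (2.05%) had one, and 9 lay wholly within it, among them the serine tRNA gene at RVE8, a tyrosine tRNA gene, AT3G10415, between SCPL49 and SPD1, and an aspartate tRNA gene, AT3G13335, between PA200, a proteasome activator gene, and AT3G13340 (site of 1491 bp). The spliceosomal RNA genes U1.7 and U4.2, 2 of 78 snRNA genes, each lay whole in a site of 1101 and 1057 bp. At the 3′ end of NYC1, a chlorophyll b reductase gene, a site of 1068 bp held 3 snoRNA genes. MIR863 lay inside a site of 1016 bp with no coding gene, and the site upstream of MIR159a, the miRNA gene that targets GAMYB-like factors, was 1288 bp long. Of 3116 lncRNA genes 57 (1.83%) had a broad site and 26 lay wholly in one. A broad site was also at 4 of 274 snoRNA genes (1.46%) and 3 of 286 miRNA genes (1.05%). The tRNA, lncRNA and snoRNA shares are near the 1.59% of coding genes, and none of these shares was tested.

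Inside coding genes, 48 sites had their midpoint, some of them because the promoter of the next gene lies there. Sites wholly downstream of the nearest TSS included CKX7, a cytosolic cytokinin oxidase gene (1441 bp), ZIP5, a zinc transporter gene (1504 bp), CSLA02, a mannan synthase gene (1283 bp), OPT4, an oligopeptide transporter gene (1161 bp), PG2 (1155 bp) and NCED6, an enzyme of abscisic acid synthesis (1006 bp). GC content was highest at 3 sites. It was 50.6% at a site with its midpoint in a coding exon of AT2G25970, upstream of AT2G25964, 47.9% at NCED6 and 45.2% at a pair of pseudogenes near the end of chromosome 2.

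The sequence of broad sites was AT-rich. Their GC content was 34.23%, against 36.19% in shorter sites, 35.90% in the arms and 32.16% in the 300 bp around the TSS of arm coding genes (250 bp before to 50 bp after). In the central 300 bp it was 32.96%, against 36.34% at the centre of shorter sites, where the window often runs past the site. Single broad sites ran from 28.23 to 50.56% with a median of 33.78%.

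Motifs were counted by their letters on both strands, at distinct start positions, and a match is a description and not a bound site. G-boxes occurred 213 times in 141 sites (45.9%), or 0.584 per kb, against 0.650 per kb in shorter sites. In central 300-bp windows 46 of 307 broad and 14.0% of shorter sites held one, against 7.90% of the promoter windows of arm coding genes. The TCP element GGNCCC was alike, 0.719 and 0.731 per kb, with 17.6% and 15.9% of central windows against 8.77% of promoters. W-box cores (0.571 and 0.627 per kb), GA repeats (1.82 and 2.04), the GCC-box GCCGCC (0.0713 and 0.114), the RY element CATGCATG (0.0549 and 0.0712) and the telo-box AAACCCTA (0.101 and 0.102) were no denser in broad sites. In central windows W-box cores were in 13.7% of broad sites, 16.4% of shorter sites and 14.2% of promoters, and GA repeats in 23.1%, 28.6% and 29.4%. The TATA sequence TATAAA, which is AT-rich as the sites are, was at 2.11 and 1.92 per kb.

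The evening element was denser in broad sites, 0.134 against 0.0793 per kb, and it was in 15 of 307 central windows (4.89%, interval 2.98 to 7.90%), against 2.10% of shorter sites (1.91 to 2.30%) and 2.82% of promoters. Its letters are nearly all A and T, and the lower GC content at broad centres moves with it. The part of base composition in the difference was not tested. The tandem repeat at AT4G31354 alone held 6 of the 49 occurrences, and without that site the density was 0.118 per kb. Successive units of the repeat matched at 84.5 to 86.0% of 200 bases, 4 pairs compared. The site at LBA1 held 4, 2 of which are shown above, and 35 sites (11.4%) held at least 1.

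GA repeats were in 213 of the 307 sites. The tract at AT2G18490, a C2H2 zinc finger gene, gave the most in 1 site, 52 of the 662 start positions, since an uninterrupted tract counts a start at every other base, and without that site the density was 1.68 per kb. The most G-boxes in 1 site was 5, between SCPL49, a serine carboxypeptidase-like gene, and SPD1, and without it the density was 0.572 per kb.

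Repeated sequence was rare in broad arm sites and common in the pericentromeric ones. In 10 of 307 sites (3.26%) at least 50% of the 32-bp words were repeated in this sense, against 1.40% of shorter arm sites and 82.7% of the 104 broad pericentromeric sites. No repeated word at all was found in 257 broad arm sites (83.7%), a lower share than the 91.9% of shorter arm sites. The 10 were the pair on chromosome 4 named above, the pseudogene pair on chromosome 2, AT1G59920 with AT1G59930, the AT4G31354 repeat, AT5G62960, and 4 sites at recent gene copies, where 100% of the words were repeated: AT1G17990 with AT1G18000, AT1G18010 with AT1G18020, the MYB-like gene AT5G39140, and SPL13A with SAE1B. At these copies reads of one could be placed on the other, so which copy was open is uncertain. No broad arm site had 5% or more of its positions in sequence shared with the organelle genomes.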

How the data were processed

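Nuclei of whole seedlings were used for ATAC-seq in 12 samples, 2 biological replicates of each of 6 genotypes. The authors used Trimmomatic for trimming and bowtie for alignment to the nuclear chromosomes of TAIR10, removed PCR duplicates with Picard, removed reads in regions of excessive coverage, called peaks in each replicate with MACS2, intersected the replicates with bedtools and merged the THSs of the genotypes. Tool versions are not given in the sources used here. The deposited list has 3 columns and 23226 regions, whose values are coordinates without signal or depth. It is larger than the consensus set that the paper describes, from which THSs of low signal were filtered out. The list used here may therefore hold such THSs, and no filter on signal could be applied to it. Its arm sites include 7511 shorter than 200 bp, which are part of the comparison group. No unmatched column of samples was found. Intersecting shortens regions and merging lengthens them, and stretches removed for coverage can hold no THS.

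Gene positions came from RefSeq's TAIR10.1 annotation, whose nuclear chromosome lengths hold every region. The annotation has 37899 gene and pseudogene records, of which 27444 are protein-coding. A TSS was the outer 5′ end of the gene record. Where classes overlapped, promoter took precedence over UTRs, UTRs over exons and exons over introns. Gene lists were matched on product names or symbols. The genes named were those at the 15 longest sites, at most 4 per list, the genes mutated in the study and the 3 sites on either side of the length limit. Other genes are named as examples picked after their values were seen. The members and lists were chosen with earlier results of these data known. Alternatives changed the length limit, the pericentromeres, the merging of close regions, the gene types, the upstream limit, repeated sites and the chromosomes. Calculations used Python 3.11.15, numpy 2.4.6 and scipy 1.17.1, and the counting code was tested on simulated regions and sequences.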

Additional observations from a re-analysis of the deposited data

How the results depend on the processing

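The counts depend on the length limit. With 800, 1500 and 2000 bp there were 817, 23 and 2 sites, and the share of arm coding genes with a site was 3.95%, 0.125% and 0.0117%, and that of TF genes 5.06%, 0.211% and 0%. At 2000 bp both sites covered a TSS and 2 or more TSSs (100% each) and 50.0% had their midpoint in a promoter. At 800 bp 52.3% covered a TSS, and at 1500 bp 21.7% covered 2 or more. With protein-coding genes only, 49.5% covered a TSS, 7.17% covered 2 or more and 62.5% had a promoter midpoint. Upstream limits of 500 bp and 2 kb gave promoter shares of 38.8% and 82.4% and coding gene shares of 1.43% and 1.90%. Merging regions less than 150 bp apart gave 379 sites and a coding gene share of 1.93%. Widening the pericentromeres, leaving out repeated sites and leaving out each chromosome in turn kept the count within 1.5 times and these shares within their intervals. Of 111 alternative values over 9 results, 30 moved beyond the interval or the 1.5 times. No paired analysis was possible because the list has no column per sample, and no replicate could be left out for the same reason. Depth and the genotype behind a site are not in the list, so they limit every length given here.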
